A study of Mus musculus with 7 samples.

Results

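The genes described here are 9 mouse genes of red cell formation, with the carbonic anhydrases Car1 and Car2 among them: Klf1, Hbb-b1, Hba-a1, Alas2, Ahsp, Slc4a1, Car1, Car2 and Tfrc. They were taken as a named list and found on the arrays through the RefSeq accessions of the probes. Of these 9 genes, 7 were matched to a probe, among 20018 genes named on the arrays, and Hbb-b1 and Ahsp were not matched. Gene names printed on the arrays were not used, so probes of Hbb-b1 or Ahsp may be present under other identifiers. A probe well above background on at least 3 of the 7 arrays was tested, which left 6 of the 9 genes among 14543 tested genes. Alas2 was matched and not tested.

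The RNA came from dendritic cells grown from sorted common myeloid progenitors of C57BL/6 mice, and it was amplified, labelled with Cy3 and hybridised to one-colour Agilent arrays. The 3 arrays labelled knockout came from Gata2(f/f)/ER-Cre mice, which carry a floxed Gata2 gene and a Cre recombinase that tamoxifen activates. The 4 control arrays came from Gata2(f/f) mice without the Cre. Both groups received tamoxifen between day 1 and day 10, and progenitors were sorted on days 20 to 22. The progenitors were cultured with 200 ng/ml FLT3-L, the ligand of the receptor Flt3, on bone marrow feeder cells of SJL mice. The sources used here give neither how cells of the culture were parted from the feeders nor the promoter that drives the Cre. The Cre was present in only one of the groups, so its own effect and that of the Gata2 deletion cannot be told apart. By their slide positions, the arrays of a group lay in a row of their own, so row and group cannot be told apart either. Separate animals are not named for the replicates, so p-values measure the spread between these arrays, which may be technical.

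Red cell precursors switch on a set of genes under GATA1, KLF1 and their partners. The products make globin chains and haem, import iron through the transferrin receptor, build the membrane skeleton and exchange carbon dioxide and bicarbonate through carbonic anhydrases and the anion exchanger. GATA2 acts earlier, in stem and progenitor cells, and is replaced by GATA1 on many sites as red cell precursors mature. Common myeloid progenitors can still give rise to red cells and megakaryocytes, whereas FLT3 ligand cultures favour dendritic cells. Several of the genes are not limited to red cells: transferrin receptor is made by dividing cells of most kinds, and carbonic anhydrase 2 by many tissues.

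The targeted gene, Gata2, had a higher signal in arrays carrying the knockout label. Its probe lay at 2.93, 3.00 and 3.06 in them and at -0.25, 0.24, 0.36 and 0.34 in the controls, on the scale used throughout, log2 signal minus the 75th percentile of the same array. The difference was 2.82 (SE 0.17, limma adjusted p = 0.000152). The sources used here do not say whether its probe falls inside the floxed stretch, so it does not settle the labels. For the dendritic cell label, 14 marker genes were looked up. Of these, 13 (among them Itgax, Flt3, H2-Ab1, Cd74 and Siglech) were well above background on all 7 arrays, and Xcr1 was not tested. Also well above background on all 7 arrays were 12 of 12 megakaryocyte and platelet markers, 9 of 10 neutrophil markers and 12848 genes in all. The presence of these signals therefore does not tell dendritic cells from other myeloid cells. The arrays labelled knockout had 61.5% to 67.4% of spots well above background and the controls 54.1% to 56.9%. Their negative control spots were dimmer as well, at -8.78 ± 0.41 (SD, n = 3) against -7.59 ± 0.14 (SD, n = 4), and the part of this in the results for dim probes was not tested.

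Car2 was the 1 tested gene of the 6 that changed, and it was higher in the arrays labelled knockout by 1.04 on the log2 scale, or 2.06-fold. The other 5 tested genes, Klf1, Hba-a1, Slc4a1, Car1 and Tfrc, did not pass the test, and their differences lay between -0.20 and 0.29. Over all tested genes, 1.51% were called higher and 1.39% lower at an adjusted p under 0.05, or 2.89% in either direction. The median difference of the 6 genes was 0.03, against -0.05 for all tested genes. Because each array measured the RNA of many cells together, fewer cells of a type and less RNA per cell cannot be told apart.

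**Figure D1:**
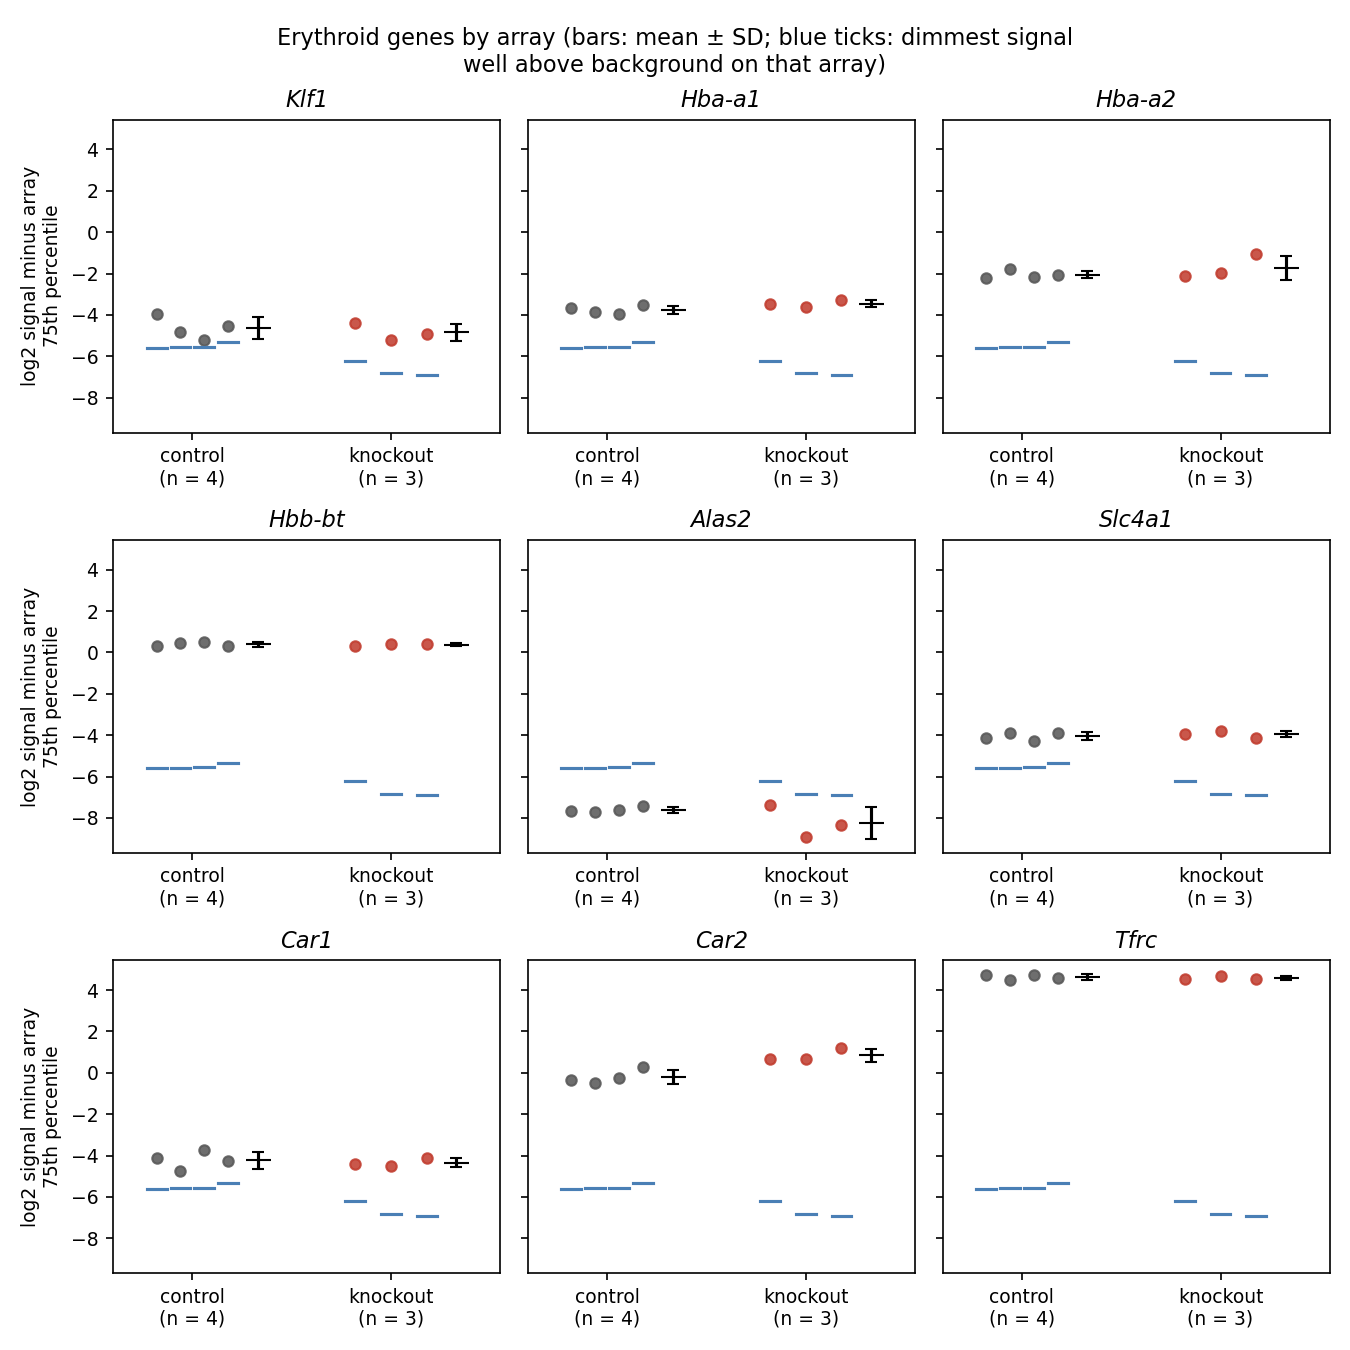
Log2 signal minus the array's 75th percentile for 9 genes, with 1 point per array, the mean ± SD beside each group and a blue tick at the dimmest signal well above background on that array. Car2 is the gene whose groups do not overlap, the Alas2 points lie under the ticks, and Tfrc lies far above them.

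Klf1, the transcription factor that activates adult globin and many other red cell genes, was close to the detection limit. Its values were -4.40, -5.20 and -4.91 in the arrays labelled knockout and -3.96, -4.80, -5.23 and -4.56 in the controls. The highest value and the lowest both belonged to controls, so the groups overlapped fully. The difference was -0.20 (SE 0.31, 95% interval -0.91 to 0.52, limma adjusted p = 0.841). It cleared the background test in 3 of 3 knockout-labelled arrays and in 3 of 4 controls, and it lay 0.33 to 2.01 log2 units above the dimmest signal so measured on the same array.

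All 16 erythroid transcription factors of a wider list were tested, and 0 of them passed the test in limma, while at an unadjusted p under 0.05 there were 1 higher and 2 lower. Over all tested genes, 13.5% had an unadjusted p under 0.05, 6.14% higher and 7.34% lower. The median difference of the 16 factors was 0.13, with 12 differences positive and 4 negative. Groups did not overlap for 5 of the 16, 3 higher and 2 lower. Over all tested genes this held for 13.8% in either direction, 5.77% higher and 8.07% lower. The 3 higher were Gfi1b (0.59), Mybl2 (0.29) and Klf3 (0.30), with limma adjusted p of 0.162, 0.415 and 0.420. Gata1, the factor that succeeds GATA2 in red cell precursors, lay at -1.07, -1.75 and -1.46 in the arrays labelled knockout and at -0.60, -0.26, -0.58 and -0.81 in the controls. Every knockout-labelled value of Gata1 was under every control value, and the difference of -0.86 (SE 0.20) had a limma adjusted p of 0.0690. Nfe2, a partner of small Maf proteins in red cells and megakaryocytes, lay at 2.36, 2.18 and 2.37 against 2.93, 3.36, 2.89 and 2.87. It too separated the groups, with a difference of -0.71 (SE 0.16) and an adjusted p of 0.0616. Among 23 alternatives in the processing, Nfe2 passed the threshold in 6 and Gata1 in 5.

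For Klf1, Hba-a1, Alas2 and Tfrc the RefSeq promoter table of build GRCm38.p6 holds windows of 300 bases, 250 before the start of the gene and 50 after. They are shown because GATA factors bind A or T, then GATA, then A or G, and Klf1, alpha globin and Alas2 are known targets of such factors. The letters AGATAA and TGATAA, on either strand, were searched. Of 32851 windows in the table, 6115 (18.6%) held one. Among these 4 genes, which have 5 windows, 3 genes did, while neither window of Tfrc did. Known targets of GATA factors are among the 4 genes, so setting them against the 18.6% is no test. The 250 bases before the start are printed 5′ to 3′ on the plus strand, with the match in capitals, for Klf1 at chr8:84901732-84901981, Hba-a1 at chr11:32283422-32283671 and Alas2 at chrX:150547167-150547416.
Klf1: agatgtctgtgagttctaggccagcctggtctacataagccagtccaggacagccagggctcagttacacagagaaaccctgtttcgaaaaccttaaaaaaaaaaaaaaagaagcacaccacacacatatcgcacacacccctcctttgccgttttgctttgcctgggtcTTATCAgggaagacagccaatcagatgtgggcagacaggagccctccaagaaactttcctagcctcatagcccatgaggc
Hba-a1: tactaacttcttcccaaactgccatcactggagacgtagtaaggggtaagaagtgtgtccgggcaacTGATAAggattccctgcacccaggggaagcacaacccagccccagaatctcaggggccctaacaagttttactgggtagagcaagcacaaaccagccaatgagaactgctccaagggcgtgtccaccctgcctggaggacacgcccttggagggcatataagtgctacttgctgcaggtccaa
Alas2: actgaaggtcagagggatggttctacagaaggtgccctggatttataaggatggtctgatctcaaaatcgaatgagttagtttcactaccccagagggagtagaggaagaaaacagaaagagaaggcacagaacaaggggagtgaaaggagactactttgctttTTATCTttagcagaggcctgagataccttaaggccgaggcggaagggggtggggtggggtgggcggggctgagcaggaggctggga
The match lies 80 to 75 bases before the start of Klf1 and 86 to 81 before that of Alas2, both on the reverse strand. In Hba-a1 it lies 183 to 178 bases before the start, on the forward strand. A match describes the letters and is not a measured binding site. Of the 3 genes whose windows hold the letters, Klf1 and Hba-a1 did not pass the test and Alas2 was not tested.

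The alpha globin Hba-a1, a chain of adult haemoglobin, had values of -3.49, -3.60 and -3.27 in the arrays labelled knockout and -3.68, -3.85, -3.95 and -3.50 in the controls. Knockout-labelled replicate 2 lay below control replicate 4, so the groups overlapped by that pair alone. The difference was 0.29 (SE 0.16, 95% interval -0.06 to 0.65, limma adjusted p = 0.472). The signal was 1.61 to 3.64 log2 units above the dimmest signal well above background on the same array.

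Its near-identical copy Hba-a2 lay at -2.13, -1.97 and -1.07 against -2.21, -1.80, -2.15 and -2.07 in the controls. Knockout-labelled replicate 3 was the highest array and the others lay within the range of the controls. The difference was 0.34 (SE 0.26, 95% interval -0.25 to 0.92, adjusted p = 0.637). The copies share sequence, so which of them each probe measured is uncertain.

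Among beta globins, which also share sequence and are uncertain for that reason, Hbb-bt lay at 0.32, 0.41 and 0.42 in the arrays labelled knockout and at 0.30, 0.48, 0.52 and 0.30 in the controls. The groups overlapped throughout, and all values were 5.62 to 7.33 log2 units above the dimmest signal well above background. The difference of Hbb-bt was -0.02 (SE 0.12, 95% interval -0.30 to 0.27, limma adjusted p = 0.976). Hbb-b2 differed by 0.07 (SE 0.17, 95% interval -0.33 to 0.46, adjusted p = 0.917). Of 12 listed globins, 10 were matched and 9 tested, and 0 passed the test in limma, nor did any at an unadjusted p under 0.05 (0 of 9). Their median difference was 0.07. The smallest p of the 9 was that of Hba-a1, followed by Hbq1a, a theta globin.

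Hbq1a lay at -6.18, -6.35 and -6.42 in the arrays labelled knockout and at -5.38, -4.54, -4.80 and -7.07 in the controls. Control replicate 4 was the lowest array of all and the other controls were the highest. The difference was -0.87 (SE 0.54, limma adjusted p = 0.557). It was -1.41 without control replicate 4 (adjusted p = 0.0244) and -1.30 with each array's own floor (0.0123), and the count of globins past the threshold was then 1. Those floors were higher in the controls, at -5.51 on average against -6.65, and control replicate 4 was raised to its floor of -5.32. With a floor common to all arrays the difference was -0.33 (limma adjusted p = 0.562).

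**Figure D2:**
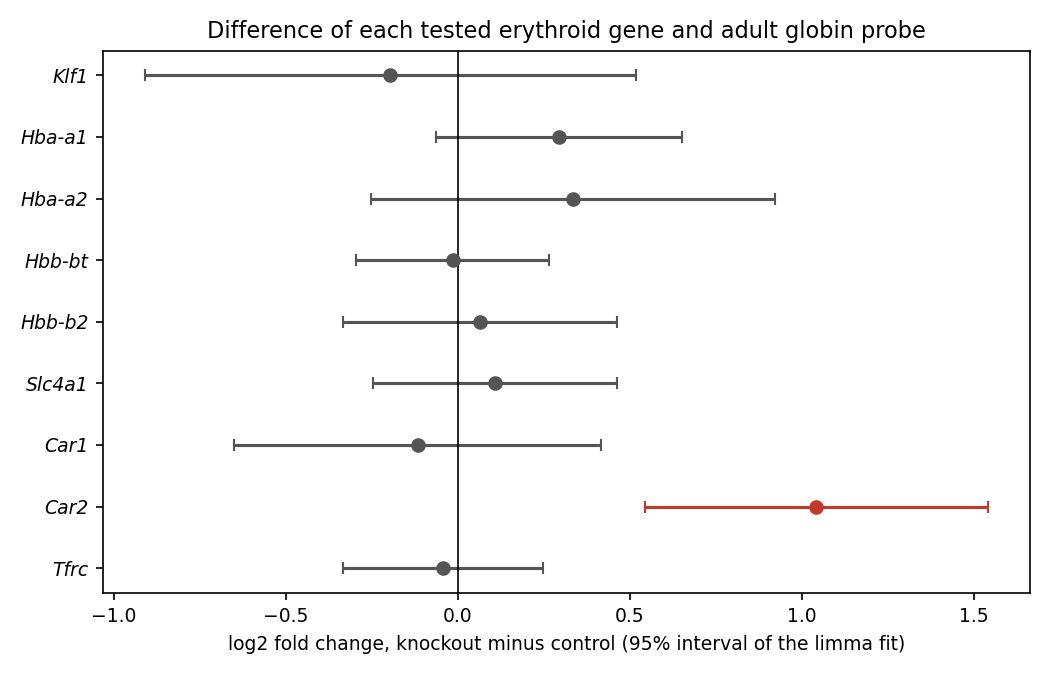
Difference between the arrays labelled knockout and the controls in log2 units, with the 95% interval of the limma fit, for the 6 tested genes and 3 further globin probes. The interval of Car2, in red, lies from 0.54 to 1.54, and the other intervals span 0.

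Alas2, the red cell form of the first enzyme of haem synthesis, was not well above background on any of them (0 of 7 arrays). Its values were -7.40, -8.94 and -8.33 in the arrays labelled knockout and -7.68, -7.72, -7.61 and -7.41 in the controls. Relative to the dimmest signal well above background on the same array these were -2.16 to -1.19, so no fold is given. The negative control spots moved from -7.59 to -8.78 between the same groups. Alas1, the form used by other cells, fell: it lay at 4.07, 4.01 and 4.04 in the arrays labelled knockout and at 4.68, 4.78, 4.91 and 4.72 in the controls. All 3 knockout-labelled values were below all 4 control values. The difference was -0.73 (SE 0.12, limma adjusted p = 0.0148), or 1.66-fold lower.

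A second probe of Alas1 differed by -0.05 (SE 0.15, adjusted p = 0.938 in a fit of all probes), and with the mean of both probes the difference was -0.39 with an adjusted p of 0.161. The call was also lost without knockout-labelled replicate 1 (adjusted p = 0.0575), knockout-labelled replicate 3 (0.0810) or control replicate 3 (0.0533). Of 19 genes of haem synthesis and transport, 18 were tested, with a median of -0.13. Alas1 was the 1 lower, with 0 higher, against 1.39% and 1.51% of all tested genes. At an unadjusted p under 0.05 there were 3 lower and 0 higher, against 7.34% and 6.14%. Groups did not overlap for 4 lower and 0 higher, against 8.07% and 5.77%.

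Slc4a1, the anion exchanger of the red cell membrane, had values of -3.93, -3.79 and -4.11 in the arrays labelled knockout and -4.12, -3.91, -4.30 and -3.87 in the controls. The groups overlapped, with the lowest array among the controls and the highest among those labelled knockout. The difference was 0.11 (SE 0.15, 95% interval -0.25 to 0.46, limma adjusted p = 0.822), and it took the other sign, -0.16, with normexp background correction.

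Of 24 genes of the red cell membrane and skeleton, 14 were tested, with a median of 0.03. Among them 1 was lower and 0 higher, against 1.39% and 1.51% of all tested genes. The 10 left untested include Epb42, Add2, Dmtn, Tmod1, Rhag and Kel, none of which was well above background on any array (0 of 7). Icam4, an adhesion protein of red cell precursors, fell: it lay at -1.81, -1.52 and -1.58 in the arrays labelled knockout and at -1.01, -0.99, -0.99 and -0.61 in the controls. The groups did not overlap, and 3 controls lay together with control replicate 4 above them. The difference was -0.74 (SE 0.15, limma adjusted p = 0.0453), or 1.67-fold lower. The call was lost without any 1 array: the adjusted p was 0.163, 0.0706 and 0.152 without knockout-labelled replicates 1, 2 and 3, and 0.0892, 0.0667, 0.0953 and 0.0821 without control replicates 1 to 4.

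Car1, a cytosolic carbonic anhydrase abundant in red cells, lay at -4.41, -4.51 and -4.10 in the arrays labelled knockout and at -4.13, -4.73, -3.75 and -4.29 in the controls. Both the highest and the lowest array were controls. The difference was -0.12 (SE 0.23, 95% interval -0.65 to 0.42, limma adjusted p = 0.880). A second probe of Car1 failed the background test on every array.

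Car2, the fast cytosolic carbonic anhydrase that red cells share with osteoclasts and many epithelia, lay at 0.69, 0.64 and 1.18 in the arrays labelled knockout. In the controls it lay at -0.33, -0.49, -0.26 and 0.26. All 3 knockout-labelled arrays were above all 4 controls, with control replicate 4 the nearest to them. The means were 0.84 ± 0.30 (SD, n = 3) and -0.20 ± 0.32 (SD, n = 4). The difference was 1.04 (SE 0.22, 95% interval 0.54 to 1.54, limma adjusted p = 0.0470), close to the threshold.

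The direction of Car2 was the same in 23 of 23 alternatives, between 0.87 and 1.20. Leaving out 1 array could not turn that direction, since the groups did not overlap. The call held in 12 of the alternatives and was lost in 11. It was lost without knockout-labelled replicate 1 (adjusted p = 0.107), 2 (0.0753) or 3 (0.185) and without control replicate 1 (0.118), 2 (0.0931) or 3 (0.123), and it was kept without control replicate 4 (0.0209). It was lost as well with quantile normalization (0.0563), with a signal floor common to all arrays (0.0800), with all probes fitted (0.0907) and with the probe of largest interquartile range (0.0560). The difference stayed at 1.04 in each of these settings. No other probe was matched to Car2, so the choice of probe left its own values unchanged.

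Of 16 carbonic anhydrases, 11 were tested, with a median of 0.05. Among them 1 was higher and 0 lower, against 1.51% and 1.39% of all tested genes. Car5a, Car5b, Car6, Car8 and Car10 were not well above background on any array. Car12, a membrane-bound form, was among the 3 genes whose values followed those of Car2 most closely over the 7 arrays (Pearson r = 0.978), after Slc9a5 (0.985) and before Sap18 (0.977). These were the highest among all tested genes and carry no test. Car12 lay at 0.18, 0.14 and 0.33 in the arrays labelled knockout and at -0.49, -0.40, -0.33 and 0.00 in the controls. Its groups did not overlap, with control replicate 4 again the highest control. The difference was 0.52 (SE 0.15, 95% interval 0.17 to 0.87, adjusted p = 0.155), which did not pass the test.

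**Figure D3:**
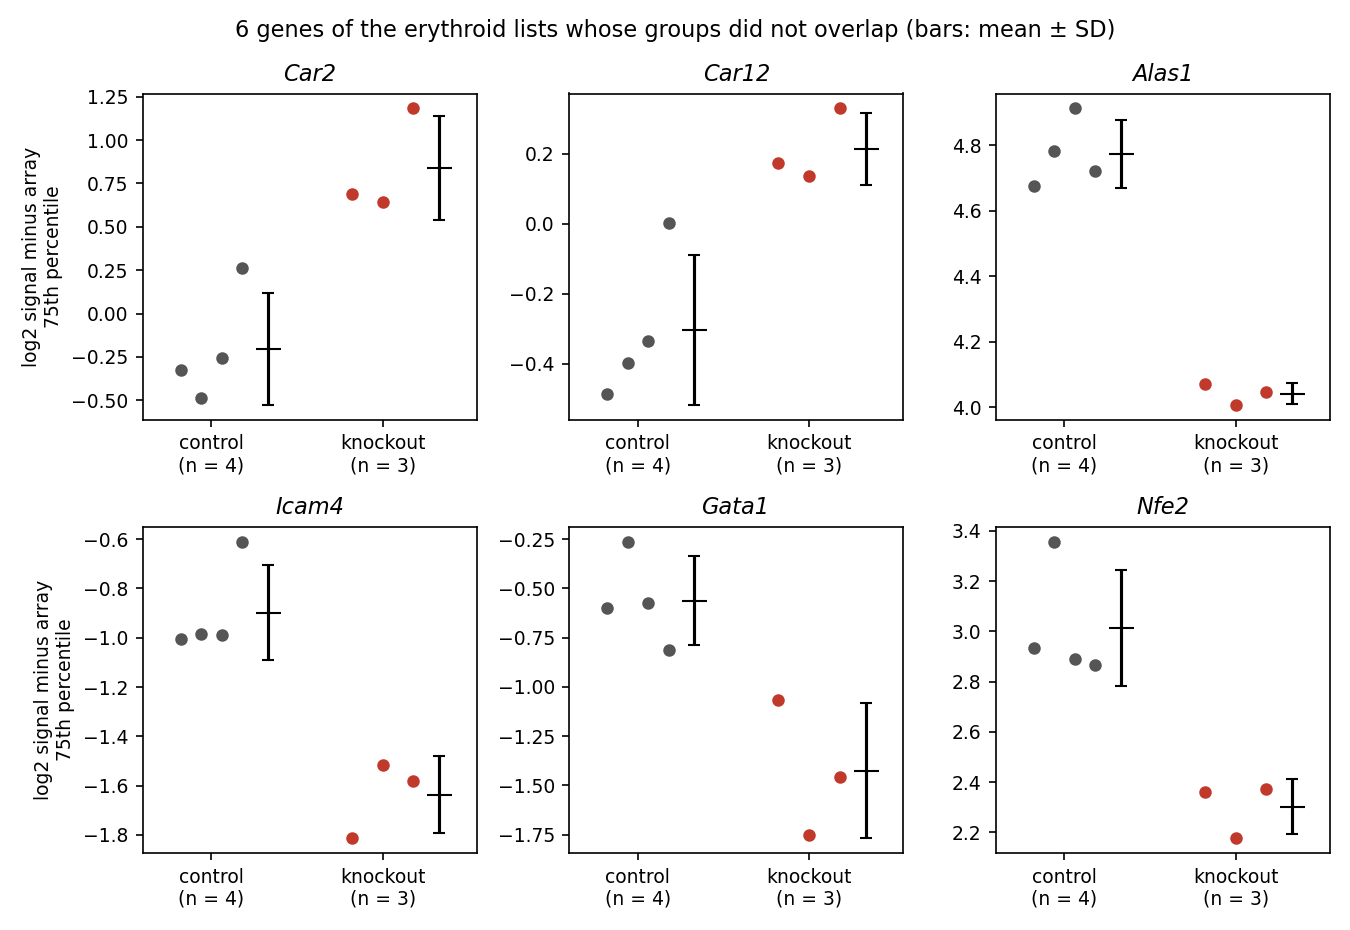
Log2 signal minus the array's 75th percentile for Car2, Car12, Alas1, Icam4, Gata1 and Nfe2, with 1 point per array and the mean ± SD beside each group, on an axis of its own for each gene. In each panel the groups do not overlap: Car2 and Car12 are higher in the 3 arrays labelled knockout and the other genes lower. Further genes of the erythroid lists whose groups did not overlap, such as Gfi1b, are not drawn.

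Tfrc, the transferrin receptor through which cells take up iron, lay at 4.55, 4.68 and 4.52 in the arrays labelled knockout and at 4.73, 4.48, 4.73 and 4.57 in the controls. The groups overlapped and the whole spread over 7 arrays was small. The signal was 9.90 to 11.5 log2 units above the dimmest signal well above background. The difference was -0.04 (SE 0.13, 95% interval -0.33 to 0.25, limma adjusted p = 0.930). The other probes of Tfrc gave -0.41 (SE 0.22, adjusted p = 0.587 in the fit of all probes) and 0.35 (SE 0.26, adjusted p = 0.687), with opposite signs.

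Of 17 genes of iron uptake and storage, 16 were tested and 0 passed the test in limma, with a median of -0.16. At an unadjusted p under 0.05 there were 1 higher and 4 lower, against 6.14% and 7.34% of all tested genes. The smallest p belonged to Hfe, which binds transferrin receptor, at -0.58 (SE 0.13, adjusted p = 0.0620), and to Tfr2, the second transferrin receptor, at -0.95 (SE 0.27, adjusted p = 0.146). Groups did not overlap for either, and Hfe passed the threshold in 4 of 23 alternatives in the processing.

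In erythropoietin receptor signalling, the growth signal of red cell precursors, 13 of 13 genes were tested and 0 passed the test in limma, with a median of -0.20. At an unadjusted p under 0.05 there were 1 higher and 2 lower, against 6.14% and 7.34% of all tested genes. The smallest p belonged to Socs3, a feedback inhibitor, at -0.89 (SE 0.26, adjusted p = 0.154), and to Gab1, an adaptor, at 0.79 (SE 0.28, adjusted p = 0.258).

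Counted once, the 8 erythroid lists held 117 genes, of which 97 were tested. Among these, Car2 was the 1 called higher and Alas1 and Icam4 the 2 called lower, or 3.09% against 2.89% of all tested genes. The difference was within 0.5 log2 units for 80 of the 97 and over 1 in size for 2. The median size of the difference was 0.20, and 0.18 over all tested genes. The 3 calls became 0 without knockout-labelled replicate 1 or 3 or control replicate 3, and 1 without knockout-labelled replicate 2 or control replicate 1 or 2.

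Markers of other lineages moved between the same groups, and their part in the results for the erythroid genes was not tested. Of 12 megakaryocyte and platelet markers, 5 were lower and 0 higher, against 1.39% and 1.51% of all tested genes, with a median of -0.72. Their summed level, in multiples of each array's 75th percentile, was 34.5 to 42.2 against 57.2 to 89.7 in the controls. Most of that sum came from the brightest marker, Pf4, with a mean of 4.81 in knockout-labelled arrays and 5.72 in controls. The 5 calls became 1 without knockout-labelled replicate 1, 2 without knockout-labelled replicate 2 or 3 or control replicate 1, and 3 without control replicate 2 or 3. Mast cell and basophil markers were called lower in 7 of the 10 tested, with summed levels of 0.780 to 1.09 against 9.89 to 22.3. Of these 7, Ms4a2 and Cd200r3 were well above background on 0 of 3 knockout-labelled arrays and 4 of 4 controls, so they passed the filter through the controls alone. With the filter on all arrays, 4 of 6 were called. The count was 7 whichever array was left out, and 5 with a floor common to all arrays or with a block on replicate number.

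Of 10 neutrophil markers, 3 were lower and 0 higher, against 1.39% and 1.51% of all tested genes, with a median of -2.08. Their summed levels were 87.3 to 122 against 131 to 150 in the controls. Most of those sums came from the brightest markers, Ctsg and Mpo, which were not called (limma adjusted p = 0.461 and 0.146). The 3 calls became 8 without knockout-labelled replicate 1, 2 without control replicate 2, and 1 without any other single array. The 13 tested dendritic cell markers had 0 calls in limma, 0 at an unadjusted p under 0.05, a median of 0.01 and overlapping summed levels of 346 to 403 and 375 to 443. The 16 cell cycle genes had 0 calls, 1 at an unadjusted p under 0.05, a median of -0.10 and summed levels of 395 to 442 and 390 to 493.

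**Figure D4:**
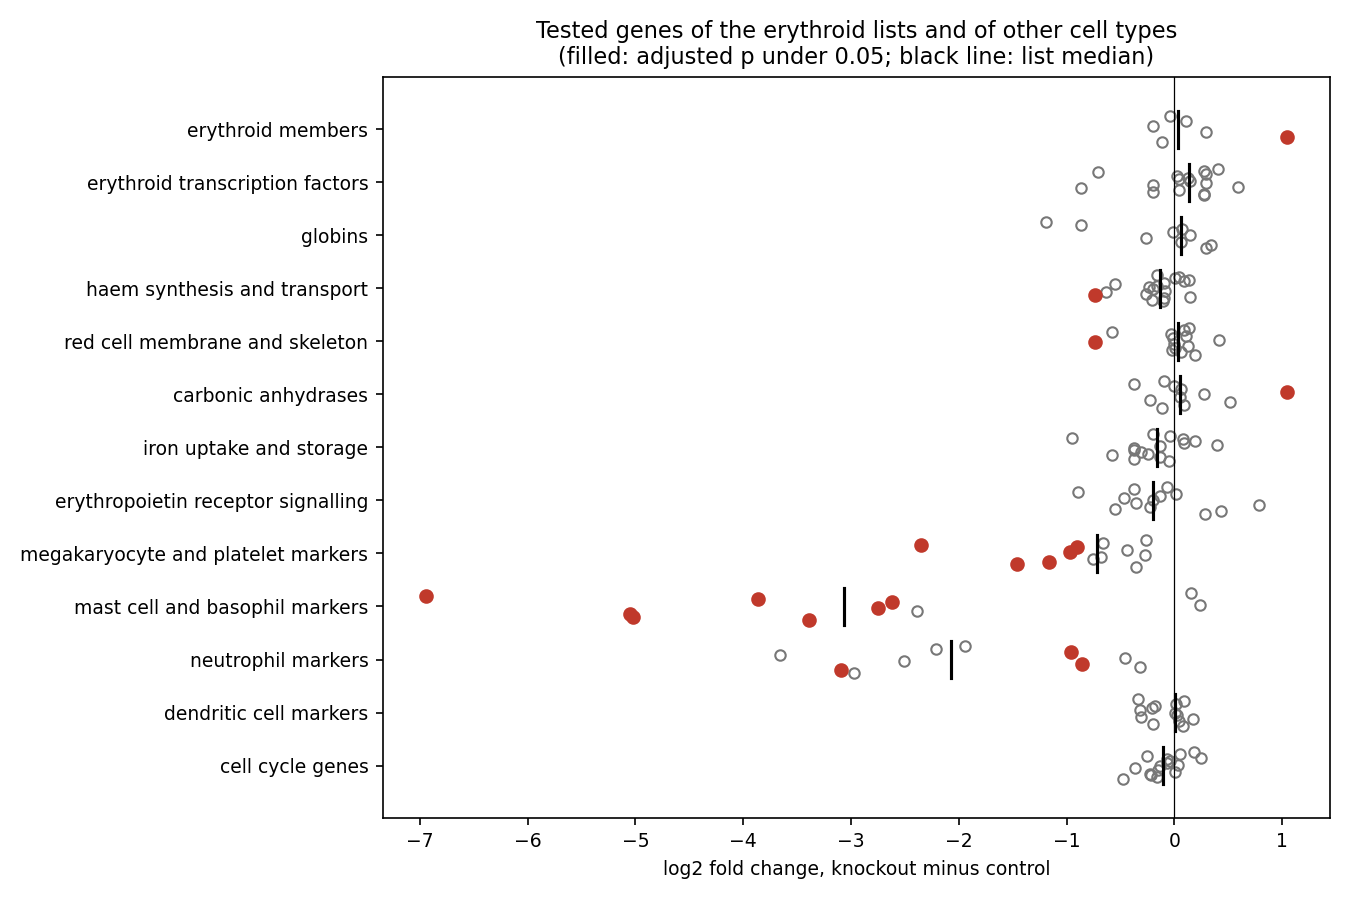
Difference between the arrays labelled knockout and the controls in log2 units for each tested gene of 13 lists, 1 point per gene, filled in red where the adjusted p is under 0.05, with a black line at the list median. The 8 erythroid lists hold few filled points, while 7 mast cell and basophil markers are filled on the left.

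For the remaining tested members, the genes of highest Pearson r are given as values only. Over the 7 arrays the 3 highest Pearson r with Klf1 belonged to Npbwr1 (0.975), Tgm4 (0.970) and Ifna1 (0.939), and with Hba-a1 to Ano7 (0.974), Sybu (0.972) and Sugp2 (0.969). For Slc4a1 they belonged to Fgf14 (0.986), Olfr538 (0.968) and Azgp1 (0.965), and for Car1 to Cdc123 (0.946), Dynll2 (0.945) and Smim19 (0.944). For Tfrc they belonged to Gxylt2 (0.961), Cyria (0.960) and Irf7 (0.958). Each is among the highest of all tested genes over few arrays that share a slide, and carries no test. None of the genes named is on the erythroid lists, which hold only 97 of the 14543 tested genes.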

How the data were processed

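The authors deposited spot intensity, written by Agilent Feature Extraction (version 10.7.3.1 in the file headers), which includes a background-corrected processed signal. Each array has 62976 spots, 3671 of them controls. The table of values deposited for the whole series was found, by comparison with the scanner values, to be on a log2 scale with every probe set to a median of 0 and the direction unchanged; the authors state none of these. Its column medians were 0, except -0.02 for knockout-labelled replicate 3. It was used as an alternative.

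From the processed signal, log2 minus each array's 75th percentile (2671 to 3825 intensity units) was computed, without outlier spots and averaged by probe. A probe had to be well above background in 3 or more of the 7 arrays (34133 of 55681), and 26413 probes were named by accession through a GRCm38.p6 table. The tested probe with the highest mean stood for a gene, and a gene could lack a value on 1 array (33 genes). No array coordinates are given, since the arrays were designed on another build. Groups were compared with limma 3.58.1 in R 4.3.3 (lmFit and eBayes, 5 residual and 3.1 prior degrees of freedom, no block), with Benjamini-Hochberg adjustment over all tested genes and a threshold of 0.05. The fit was tested on simulated data. The number of arrays limits the precision.

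The members and lists were chosen with earlier results of these data known. Named are every member and, in each other list, up to 4 genes per direction past the threshold. Where none passes, up to 2 of smallest p are named. Near-identical globins are named too, as are erythroid transcription factors whose groups did not overlap. For each tested member the 3 genes of highest Pearson r are given. Marker lists are given by counts, with a few genes named for their signal. The megakaryocyte, mast cell, neutrophil, dendritic cell and cell cycle lists served as markers. Alternatives covered background correction (normexp on the median signal, with offset 50, as the mean signal was not used here), normalization, the filter, floors, leaving out each array, thresholds, array weights, the variance model, the choice of probe and a block on replicate number; genes with a value on every array was added after seeing the data. One gene of the lists is not reported here.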

Additional observations from a re-analysis of the deposited data

Results flagged for a closer look

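Among 31 genes of the erythroid lists whose 4 control arrays were examined, 3 had 1 control array set apart from the others by Dixon's test, and chance sets apart about 1 in 20 such groups. Icam4 lay at -0.61 in control replicate 4, with the other controls between -1.01 and -0.99. Nfe2 lay at 3.36 in control replicate 2, with the other controls between 2.87 and 2.93. Car11 lay at -4.75 in control replicate 1, with the other controls between -5.30 and -5.23. The check was widened from the 6 tested members, none of which was set apart, to these 31 genes after seeing the data. The rest of the 97 tested genes of the erythroid lists were not examined, so the 3 are not a full list. Tal1, for example, was not among the 31. It lay at 1.92 in control replicate 2, with the other controls between 1.14 and 1.16.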

How the results depend on the processing

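Of the 6 tested genes, 1 passed the threshold, against 0 with quantile normalization, a common floor, all probes fitted, the probe of largest interquartile range or an adjusted p under 0.01, and 0 to 1 with 1 array left out. The other 5 genes did not pass in any of 114 alternative values (adjusted p 0.183 to 0.997), and with 1 array left out Klf1 lay between -0.41 and 0.03 and Car1 between -0.28 and 0.04. Signs turned for Slc4a1 with normexp (-0.16), for Tfrc with quantile normalization (0.08), median centring (0.03) and the probe of largest interquartile range (0.35), for Klf1 without control replicate 1 (0.03) and for Car1 without control replicate 3 (0.04). The 3 calls on the erythroid lists became 5 with normexp, with the filter on all arrays and with limma-trend, 6 with each array's own floor, 8 with array weights, 1 with all probes fitted or the probe of largest interquartile range, 0 at 0.01, 7 at 0.1, and 0 to 3 with 1 array left out. Without the filter they became 16 of 115, 15 lower, of which 9 genes were not well above background on any array. Over all genes, 421 calls became 2848 without the filter (2483 lower, 365 higher), 757 with array weights, 205 at 0.01, and 243 or 193 without knockout-labelled replicate 1 or 3. Replicate numbers did not pair the arrays (correlations of deviations -0.17, -0.16 and -0.0062). With the replicate block, calls were 0 of 6, 0 on the erythroid lists and 196 over all genes, and Car2 had an adjusted p of 0.0613. Causes were not tested. Signal over background limits Klf1, Car1, Slc4a1 and Hba-a1, and Alas2 entirely.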
